A study of Mus musculus with 22 samples.

Results

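The Cyp2c family of cytochrome P450 genes was examined in mouse liver through 10 of its genes, Cyp2c29, Cyp2c37, Cyp2c38, Cyp2c39, Cyp2c40, Cyp2c50, Cyp2c54, Cyp2c67, Cyp2c68 and Cyp2c69. They were taken by symbol from the 53392 rows of a table of estimated read counts per gene, and all 10 passed the filter on low counts. RNA was sequenced from the livers of 22 C57BL/6 mice, with 1 library per mouse. There were 11 conventional mice, 6 of them non-pregnant and 5 pregnant, and 11 germ-free mice, again 6 non-pregnant and 5 pregnant. Conventional mice, which carry an ordinary gut microbiota, had age labels of 70 or 77 (unit not stated), and germ-free mice, which are raised without microorganisms, had age labels of 91 to 121. No genetic change or drug is named for any group, and all mice received the same autoclaved chow, water and bedding. Pregnant mice were taken on gestation day 15, which for conventional mice was counted from a single overnight mating. Germ-free females stayed with males for 72 h and their gestation day was assumed, so microbiota status, age and the dating of pregnancy cannot be told apart between germ-free and conventional mice. The series' title asks how the microbiome bears on hepatic genes for drug processing in pregnancy.

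CYP2C enzymes are heme proteins of the endoplasmic reticulum that receive electrons from NADPH-cytochrome P450 reductase (Por) and insert an oxygen atom into drugs, steroids and unsaturated fatty acids. Several mouse members turn arachidonic acid into epoxides or hydroxy fatty acids that act as local signals. In hepatocytes the genes are known to respond to the nuclear receptors CAR (Nr1i3) and PXR (Nr1i2), to HNF4A, and to the growth hormone pattern that differs between the sexes. In whole liver, fewer cells of a type and less RNA per cell cannot be told apart.

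Library totals ran from 18064491 to 30036912 estimated counts, and mitochondrially encoded genes took 5.9% to 31.99% of the counts of a library. Levels are given in CPM, a gene's counts scaled to the TMM-adjusted total of its library. All 10 hepatocyte markers checked were present, and their sum had a median of 100693 CPM without and 199621 CPM with pregnancy in conventional mice (4 markers called), and 101426 and 187110 CPM in germ-free mice (8 called). The 8 erythroid markers measured summed to 449 to 862 CPM without and 370 to 2252 CPM with pregnancy in conventional mice (2 called), and to 237 to 1769 and 1760 to 3574 CPM in germ-free mice (7 called). The 7 bile duct markers summed to 35.4 to 94.6 CPM without and 28.6 to 30.2 CPM with pregnancy in conventional mice (1 called), and to 46.6 to 75.0 and 25.1 to 143.7 CPM in germ-free mice (2 called). Of 9 stellate cell markers, 3 were called in conventional and 1 in germ-free pregnancy. Their sum had a median of 227 CPM without and 226 CPM with pregnancy in conventional mice, and 259 and 226 CPM in germ-free mice. Called markers are those that passed the edgeR test given below, in either direction. By that rule 9.02% of all genes were called in conventional and 10.8% in germ-free pregnancy. The part of these markers in the results below was not tested. Conventional pregnant replicate 2 stood apart, with the acute-phase gene Saa1 at 2049 CPM, where no other mouse exceeded 62.2 CPM, and Saa2 at 2156 CPM, where no other mouse exceeded 43.5 CPM. Replicates 1 and 2 of this group, both with the age label 70, also had less of the pregnancy-induced prolactin receptor Prlr (928 and 646 CPM) than replicates 3 to 5 (1794 to 2073 CPM). Some results are therefore also given without these libraries, but the correlations between genes are not.

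The 10 genes lie within a single tandem cluster on chromosome 19 (GRCm38). Cyp2c29 (chr19:39269405-39330713, + strand), Cyp2c38 (chr19:39389556-39463075, - strand) and Cyp2c39 (chr19:39510862-39568529, + strand) come first among the 10. Cyp2c67 (chr19:39608842-39649051), Cyp2c68 (chr19:39688834-39741054), Cyp2c40 (chr19:39767071-39812814) and Cyp2c69 (chr19:39842814-39886799) follow, all on the - strand. Cyp2c37 (chr19:39992424-40012243, + strand), Cyp2c54 (chr19:40037940-40073827, - strand) and Cyp2c50 (chr19:40089688-40113950, + strand) come last among the 10. These 3 sets were also the sets of close paralogs: coding sequences were 89.1% to 97.7% identical in the 12 pairs within a set and 71.7% to 83.0% in the 33 pairs between sets.

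How alike the copies are bears on every value below, because short reads from a shared stretch fit several genes. The last 90 coding bases of the Cyp2c37 and Cyp2c40 sets (GENCODE M21 transcripts) are shown for that reason, with capitals at each base that differs from the top line of the set.
Cyp2c37: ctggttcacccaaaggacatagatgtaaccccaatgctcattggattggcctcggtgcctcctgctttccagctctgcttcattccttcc
Cyp2c50: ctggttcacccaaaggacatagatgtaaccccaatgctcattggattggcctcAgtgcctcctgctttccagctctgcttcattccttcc
Cyp2c54: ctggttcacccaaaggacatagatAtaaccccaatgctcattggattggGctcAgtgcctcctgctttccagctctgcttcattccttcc
Cyp2c40: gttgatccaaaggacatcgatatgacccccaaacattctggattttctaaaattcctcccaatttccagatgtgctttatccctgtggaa
Cyp2c67: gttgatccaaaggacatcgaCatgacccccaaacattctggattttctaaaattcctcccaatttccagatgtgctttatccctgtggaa
Cyp2c68: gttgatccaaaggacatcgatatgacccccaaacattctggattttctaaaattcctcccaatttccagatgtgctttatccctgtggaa
Cyp2c69: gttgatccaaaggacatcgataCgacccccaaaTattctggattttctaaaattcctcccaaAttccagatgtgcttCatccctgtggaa
Over these 90 bases Cyp2c50 differed from Cyp2c37 at 1 base and Cyp2c54 at 3, and Cyp2c68 did not differ from Cyp2c40 at any. Of all stretches of 31 bases in a transcript, the percentage also found in another gene was 84.5% for Cyp2c40, 67.6% for Cyp2c67, 65.9% for Cyp2c69 and 62.0% for Cyp2c68. It was 47.9% for Cyp2c50, 47.4% for Cyp2c37 and 42.3% for Cyp2c54, and lower for Cyp2c39 (26.9%), Cyp2c38 (16.6%) and Cyp2c29 (10.3%). Values of single genes in the Cyp2c37 and Cyp2c40 sets are thus uncertain individually, and summed levels of each set are given beside them. Reads of Cyp2c29 and of the overlapping pseudogene Cyp2c53-ps, which was listed at 0.167 CPM or less in every library, could not be told apart by strand.

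Promoters are shown for the Cyp2c40 set because they share a run of letters that the windows of the other sets lack in exactly that spelling. Each line holds the 140 bases before the RefSeq start (RefSeq promoters, GRCm38.p6, - strand), with the letters CAAAGTCCA, a spelling of the HNF4 motif, in capitals.
Cyp2c40, chr19:39812815-39812954: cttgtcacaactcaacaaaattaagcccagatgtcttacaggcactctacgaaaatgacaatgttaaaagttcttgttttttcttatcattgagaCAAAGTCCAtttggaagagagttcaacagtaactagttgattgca
Cyp2c67, chr19:39649043-39649182: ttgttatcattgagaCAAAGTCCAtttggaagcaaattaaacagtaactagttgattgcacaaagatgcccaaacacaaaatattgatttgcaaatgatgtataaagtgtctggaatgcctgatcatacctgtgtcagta
Cyp2c68, chr19:39741102-39741241: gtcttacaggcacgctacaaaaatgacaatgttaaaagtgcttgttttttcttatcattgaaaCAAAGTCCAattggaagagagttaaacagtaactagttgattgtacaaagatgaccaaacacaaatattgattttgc
Cyp2c69, chr19:39886770-39886909: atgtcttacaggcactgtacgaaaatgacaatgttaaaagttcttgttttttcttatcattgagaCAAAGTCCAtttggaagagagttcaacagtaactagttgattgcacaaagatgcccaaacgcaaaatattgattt
RefSeq windows were matched for 9 of the 10 genes, all but Cyp2c54 (10 windows, since Cyp2c39 has a pair). In the 250 bases before the start, on both strands, CAAAGTCCA stood in these 4 windows and in none of the 6 windows of the other sets, against 0.384% of all 32851 windows of that length. Only exact matches were counted. The windows of Cyp2c29, Cyp2c37 and Cyp2c39 held CAAAGTCTA, which differs from it only in the letter before the last. CAAAGTCCA began 45 bases before the start in Cyp2c40, 125 in Cyp2c67, 77 in Cyp2c68 and 75 in Cyp2c69. The other letters searched were TGTTTAC (FOXA; 3 of 10 windows and 3.17% of all), AGGTCA (nuclear receptor half-site; 2 and 14.0%), TATAAA (3 and 12.4%), GTTAAT (HNF1 half-site; 3 and 6.43%) and TTCNNNGAA (STAT; 0 and 7.02%). The windows of Cyp2c68 and Cyp2c69 were 91.3% identical and those of Cyp2c37 and Cyp2c50 84.3%. Pairs of the 4 windows of the Cyp2c40 set ran from 47.9% (Cyp2c40 with Cyp2c67) to 91.3%. Each pair was aligned end to end and gaps counted as differences, so a shift between the annotated starts lowers the percentage. The starts of Cyp2c40 and Cyp2c67 are shifted in this way, with CAAAGTCCA at 45 and 125 bases. Low values are therefore no measure of how far the shared stretches differ. As windows of close paralogs, their matches are not independent of each other. A match is a description of the letters, not of binding.

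Compared per kilobase of transcript, the genes covered a wide range of levels. In conventional non-pregnant mice Cyp2c69 (453 ± 180 CPM per kilobase, SD, n = 6) and Cyp2c29 (447 ± 84.7) stood highest, followed by Cyp2c50 (413 ± 61.3), Cyp2c37 (373 ± 68.9), Cyp2c68 (261 ± 33.6), Cyp2c40 (244 ± 59.1) and Cyp2c54 (226 ± 50.5). These 7 genes overlapped with their neighbours in the order. Cyp2c67 (52.8 ± 7.65), Cyp2c38 (22.4 ± 3.58) and Cyp2c39 (2.36 ± 0.402 CPM per kilobase) lay below, each with no library reaching the next gene up. Cyp2c39 was the lowest of the 10 in all 4 groups, with no overlap with Cyp2c38. In conventional pregnant mice Cyp2c50 dropped from rank 3 to rank 6 (99.5 ± 22.7 CPM per kilobase, n = 5), below Cyp2c68 and Cyp2c40. In germ-free pregnant mice Cyp2c69 held rank 1 (702 ± 200), whereas in germ-free non-pregnant mice it held rank 4 (289 ± 105) behind Cyp2c29, Cyp2c50 and Cyp2c37.

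**Figure D1:**
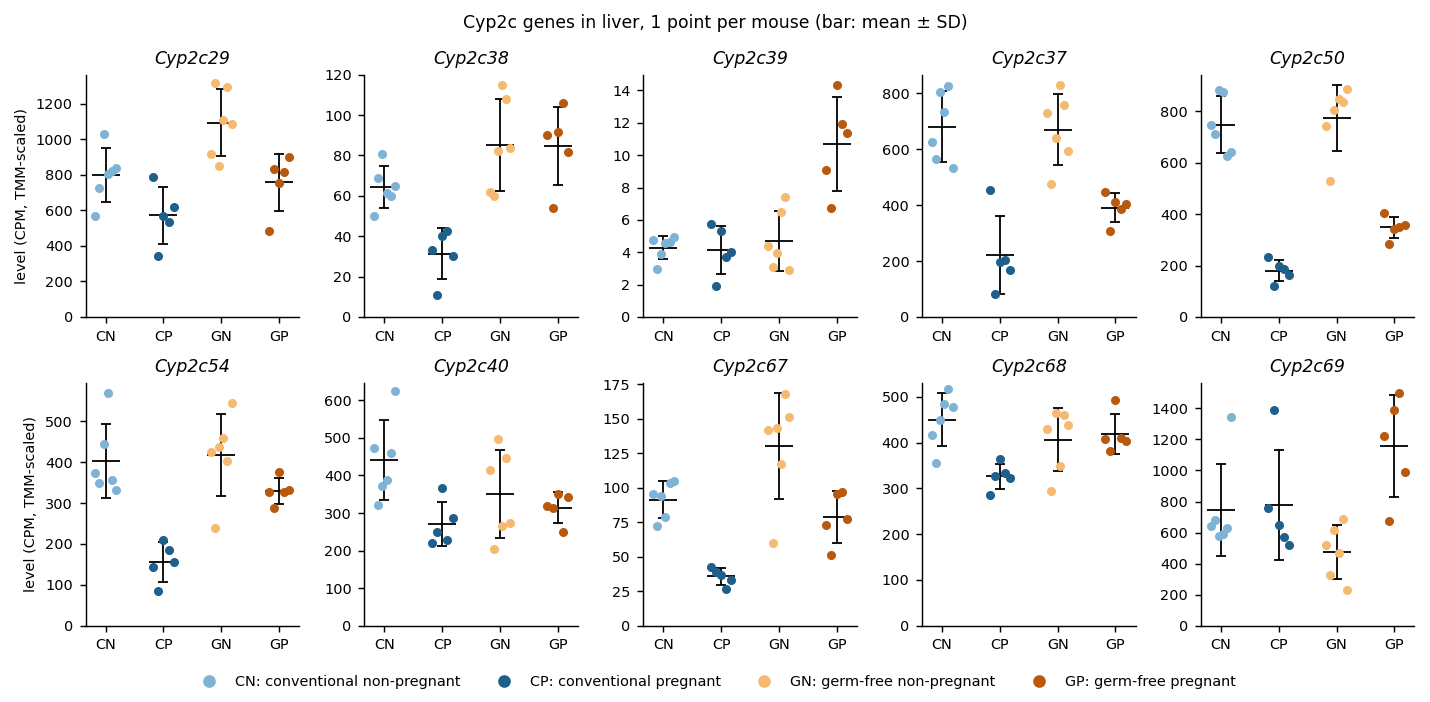
Level of each Cyp2c gene (CPM after TMM scaling, linear axes from 0) in the 4 groups, with 1 point per mouse and a bar at the mean with whiskers of 1 SD (n = 6 non-pregnant and n = 5 pregnant). Cyp2c50 was lower in every pregnant than in every non-pregnant mouse of its kind, while Cyp2c69 was highest on average in germ-free pregnant mice.

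Pregnancy in conventional mice went with lower expression of most of the family. Of the 10 genes, 7 fell (Cyp2c37, Cyp2c38, Cyp2c40, Cyp2c50, Cyp2c54, Cyp2c67 and Cyp2c68) at an adjusted p under 0.05 in edgeR's quasi-likelihood test with Benjamini-Hochberg adjustment, where 3.52% of all 15928 genes tested fell. None rose, where 5.49% of all genes rose (9.02% of all genes were called in either direction). The groups did not overlap for Cyp2c37, Cyp2c38, Cyp2c50, Cyp2c54 and Cyp2c67, 5 of 10 genes against 2.39% of all genes lower without overlap, and no member was higher without overlap (2.57% of all genes). The median log2 change was -0.87 over the 10 genes and 0.04 over all genes.

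The Cyp2c37 set, whose enzymes oxidise arachidonic acid and whose genes are known to respond to phenobarbital, changed most. Cyp2c50 stood at 231, 121, 197, 188 and 163 CPM in conventional pregnant replicates 1 to 5, against a lowest, median and highest level of 625, 730 and 884 CPM in non-pregnant mice. Every pregnant mouse was thus below every non-pregnant mouse, and the log2 change was -2.05 ± 0.18 (SE; adjusted p = 4.31e-08). Cyp2c37 stood at 456, 83.7, 197, 203 and 168 CPM in pregnant mice and at 532, 679 and 827 CPM (lowest, median and highest) in non-pregnant mice. Its groups did not overlap either, although replicate 1 came close, and its log2 change was -1.62 ± 0.28 (adjusted p = 0.000462). Cyp2c54 was measured at 144, 84.0, 210, 186 and 155 CPM in pregnant mice, and at 331, 364 and 569 CPM in non-pregnant mice. Again no pregnant mouse reached the non-pregnant range, with a log2 change of -1.37 ± 0.21 (adjusted p = 0.000156). The summed level of the 3 genes was 557 ± 197 CPM (SD, n = 5) in pregnant and 1833 ± 271 CPM (n = 6) in non-pregnant mice, a change of -69.6% without overlap.

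The Cyp2c40 set, which includes genes known as higher in female than in male liver, was uneven. Cyp2c67 stood at 42.6, 39.0, 37.0, 26.8 and 33.0 CPM in conventional pregnant mice and at 72.1, 94.9 and 105 CPM (lowest, median and highest) in non-pregnant mice. It fell without overlap, by 1.36 ± 0.21 on the log2 scale (adjusted p = 0.000157). Cyp2c40, an arachidonic acid hydroxylase, changed by -0.71 ± 0.21 on the log2 scale (adjusted p = 0.0404) and Cyp2c68 by -0.47 ± 0.14 (adjusted p = 0.0337), and in both genes 1 or more pregnant mice reached into the non-pregnant range. Cyp2c69 stood at 761, 1392, 649, 571 and 521 CPM in pregnant mice and at 577, 637 and 1346 CPM in non-pregnant mice. Its groups overlapped widely and the log2 change was 0.06 ± 0.30 (adjusted p = 0.935). Without pregnant replicate 2, which had the highest level of its group, that change was -0.25. Without non-pregnant replicate 6, the highest of the non-pregnant mice at 1346 CPM, it was 0.32. The summed level of the set was 1410 ± 351 CPM in pregnant and 1727 ± 417 CPM in non-pregnant mice, a change of -18.3% with overlapping groups. Only pregnant replicate 2 (2008 CPM) reached the non-pregnant range. The other pregnant mice stood at 1158 to 1415 CPM, below the lowest non-pregnant mouse at 1431 CPM.

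In the Cyp2c29 set, Cyp2c38, an arachidonic acid epoxygenase, stood at 33.0, 11.0, 40.3, 42.6 and 30.1 CPM in conventional pregnant mice and at 49.9, 63.1 and 80.7 CPM (lowest, median and highest) in non-pregnant mice. The ranges did not overlap and the log2 change was -1.03 ± 0.25 (adjusted p = 0.0109). Cyp2c29, the most abundant epoxygenase of the set, averaged 571 ± 160 CPM in pregnant and 797 ± 151 CPM in non-pregnant mice, a log2 change of -0.48 ± 0.20 that did not pass the test (adjusted p = 0.149). Cyp2c39, a retinoic acid hydroxylase, averaged 4.14 ± 1.50 and 4.28 ± 0.731 CPM, a log2 change of -0.05 ± 0.27 (adjusted p = 0.946).

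The calls of Cyp2c37, Cyp2c38, Cyp2c50, Cyp2c54 and Cyp2c67 held in each of 22 alternative fits, whereas Cyp2c40 was called in 12 and Cyp2c68 in 10 of the 22. Without both pregnant replicates 1 and 2, 5 of 10 genes were called. Within age label 70 (2 pregnant and 2 non-pregnant mice) the log2 ratio of means was -1.98 for Cyp2c50, -1.10 for Cyp2c37, -1.63 for Cyp2c54, -1.30 for Cyp2c67 and -1.38 for Cyp2c38. Within age label 77 (3 and 4 mice) it was -2.08, -1.95, -1.23, -1.43 and -0.85 in the same order, and none of the 5 genes overlapped at either label. Cyp2c40 differed more at label 70 (-1.22) than at label 77 (-0.40, with overlap), a difference that was not tested.

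Pregnancy in germ-free mice went with fewer called members in the main edgeR fit, and in both directions. Cyp2c50 and Cyp2c67 fell, 2 of 10 genes against 3.6% of all genes, and Cyp2c39 and Cyp2c69 rose, 2 of 10 against 7.15%. That made 4 of 10 genes called, against 10.8% of all genes in either direction. Cyp2c37 and Cyp2c50 were lower without overlap, as were 2.81% of all genes, and no member was higher without overlap (5.66% of all genes). At an unadjusted p under 0.05, 6 members passed, against 24.1% of all genes. The median log2 change was -0.25 over the 10 genes and -0.02 over all genes. With no scaling factor, Cyp2c29, Cyp2c37 and Cyp2c54 also passed in germ-free pregnancy, where 2126 of all 15928 genes fell, and Cyp2c69 did not pass. In that fit Cyp2c40 and Cyp2c68 did not pass in conventional pregnancy. Members called were then not fewer in germ-free mice.

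Cyp2c50 stood at 403, 285, 344, 350 and 359 CPM in germ-free pregnant replicates 1 to 5 and at 528, 821 and 885 CPM (lowest, median and highest) in germ-free non-pregnant mice. No mouse overlapped and the log2 change was -1.15 ± 0.17 (adjusted p = 5.82e-05). Cyp2c37 stood at 447, 307, 412, 387 and 404 CPM against 476, 684 and 830 CPM, also without overlap, but its log2 change of -0.78 ± 0.27 did not pass the test over all genes (adjusted p = 0.0695; it passed in 6 of 21 alternative fits, DESeq2 among them). Cyp2c54 averaged 330 ± 31.3 CPM in pregnant and 418 ± 101 CPM in non-pregnant mice (log2 change -0.34 ± 0.21, adjusted p = 0.336). Together the 3 genes summed to 1070 ± 114 CPM in pregnant and 1863 ± 318 CPM in non-pregnant mice, a change of -42.6% without overlap.

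Cyp2c69 was measured at 1220, 676, 1391, 1498 and 991 CPM in germ-free pregnant mice and at 230, 493 and 689 CPM (lowest, median and highest) in germ-free non-pregnant mice. Only pregnant replicate 2 lay inside the non-pregnant range, and the gene rose by 1.28 ± 0.30 on the log2 scale (adjusted p = 0.00622). Cyp2c39 was measured at 9.05, 6.73, 14.4, 11.9 and 11.4 CPM in pregnant mice and at 2.88, 4.20 and 7.44 CPM in non-pregnant mice. It too overlapped through replicate 2 alone, and rose by 1.18 ± 0.26 (adjusted p = 0.00421). Cyp2c67 averaged 78.9 ± 18.7 CPM in pregnant and 130 ± 38.3 CPM in non-pregnant mice, a fall of 0.72 ± 0.21 on the log2 scale (adjusted p = 0.0243) with overlapping groups. Cyp2c29 changed by -0.53 ± 0.20 and did not pass (adjusted p = 0.0976), although it passed in 4 of 21 alternative fits, DESeq2 among them. Cyp2c40 changed by -0.15 ± 0.21, Cyp2c38 by -0.01 ± 0.25 and Cyp2c68 by 0.04 ± 0.14, and none of these passed. The Cyp2c40 set summed to 1968 ± 366 CPM in pregnant and 1362 ± 357 CPM in non-pregnant mice, 44.5% higher with overlapping groups, and the share of Cyp2c69 in all 10 genes rose from 10.6% ± 3.08 to 29.3% ± 5.80 (SD).

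Within the germ-free mice of age label 105 (3 pregnant and 4 non-pregnant) the log2 ratio of means was -1.33 for Cyp2c50, -0.96 for Cyp2c37, -0.95 for Cyp2c67, 1.03 for Cyp2c39 and 1.10 for Cyp2c69, the last pair with overlap. Calls for Cyp2c39 and Cyp2c50 held in all 21 alternative fits and that of Cyp2c69 in 20, the exception being library totals with no scaling factor (log2 change 0.95, adjusted p = 0.0700). Cyp2c67 was called in 16 and lost its call when only the germ-free mice were fitted, and without non-pregnant replicate 5 or 6 or pregnant replicate 2 or 5 (highest adjusted p = 0.0801).

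**Figure D2:**
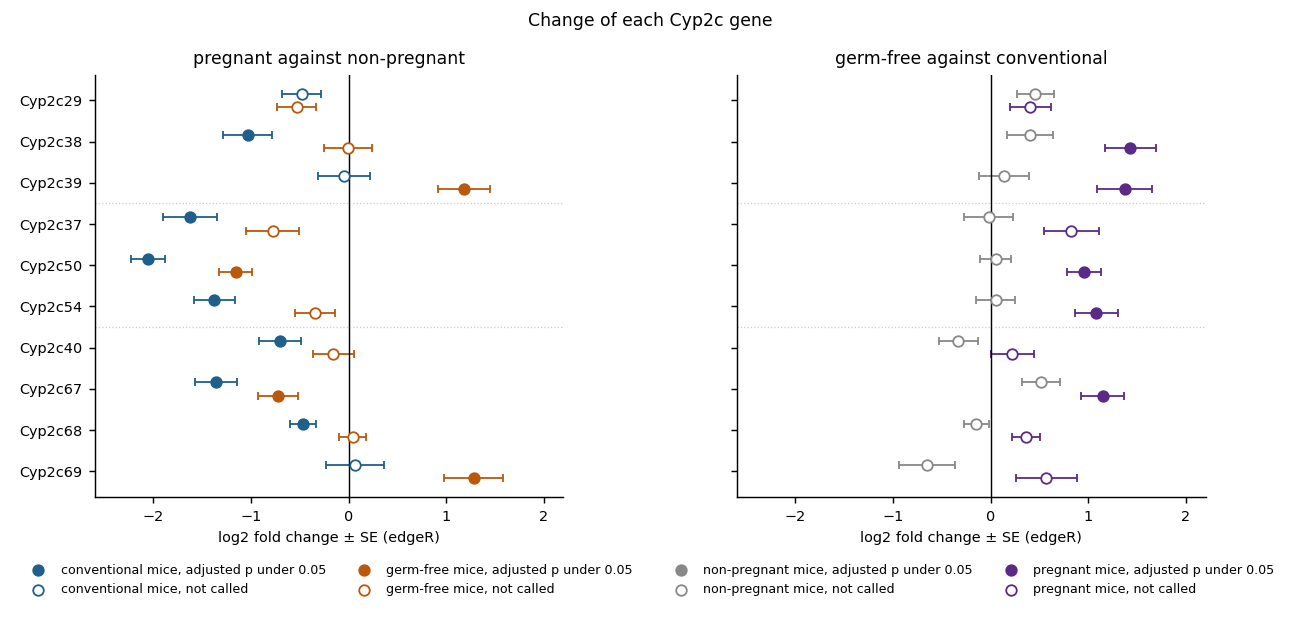
Log2 fold change of each gene with its standard error from the edgeR fit, for pregnancy in conventional and germ-free mice (left) and for germ-free against conventional mice in non-pregnant and pregnant animals (right). Filled points passed an adjusted p of 0.05: 7 genes fell with pregnancy in conventional mice, whereas in germ-free mice 2 fell and 2 rose, and 5 genes were higher in germ-free than in conventional pregnant mice.

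Without pregnancy, no member differed past the test with microbiota status. None of the 10 genes was called between germ-free and conventional non-pregnant mice by edgeR or DESeq2, where edgeR called 0.157% of all genes (25 of 15928), 0.0879% higher and 0.0691% lower. At an unadjusted p under 0.05, 3 genes passed against 6.01% of all genes, namely Cyp2c29 (log2 change 0.46 ± 0.19), Cyp2c67 (0.51 ± 0.20) and Cyp2c69 (-0.65 ± 0.29). The Cyp2c37 set gave the smallest differences, with log2 changes of -0.02 ± 0.26 for Cyp2c37, 0.05 ± 0.16 for Cyp2c50 and 0.05 ± 0.20 for Cyp2c54. Cyp2c38 (0.40 ± 0.24), Cyp2c39 (0.14 ± 0.26), Cyp2c40 (-0.33 ± 0.20) and Cyp2c68 (-0.15 ± 0.13) did not pass either. Each of the 10 genes overlapped between the groups (0.364% of all genes were higher and 0.433% lower without overlap), and the median log2 change was 0.05 over the 10 genes and -0.01 over all genes.

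In pregnant mice, members of the family were higher in germ-free than in conventional animals. Of the 10 genes, 5 (Cyp2c38, Cyp2c39, Cyp2c50, Cyp2c54 and Cyp2c67) were called higher, where 0.0816% of all genes were (13 of 15928, so that 8 other genes were called). None was called lower, where 0.0502% of all genes were (0.132% of all genes in either direction). Without overlap, 6 of 10 genes were higher, the 5 called genes and Cyp2c68, against 0.496% of all genes, and none was lower (0.603%). The median log2 difference was 0.89 over the 10 genes and -0.03 over all genes. The conventional pregnant mice of this comparison are also those of the pregnancy comparison above.

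Cyp2c38 stood at 53.9 to 106 CPM in the 5 germ-free pregnant mice and at 11.0 to 42.6 CPM in the 5 conventional pregnant mice, the largest log2 difference of the family (1.43 ± 0.26, adjusted p = 0.0228). Cyp2c39 differed by 1.37 ± 0.28 (adjusted p = 0.0499), at 6.73 to 14.4 CPM against 1.93 to 5.76 CPM. Cyp2c67 differed by 1.15 ± 0.22 (adjusted p = 0.0265), at 51.3 to 97.0 CPM against 26.8 to 42.6 CPM. In each of these 3 genes the lowest germ-free mouse was above the highest conventional mouse. Cyp2c54 differed by 1.08 ± 0.22 (adjusted p = 0.0443), at 287 to 375 CPM against 84.0 to 210 CPM. Cyp2c50 differed by 0.95 ± 0.17 (adjusted p = 0.0222), at 285 to 403 CPM against 121 to 231 CPM. These ranges were likewise apart, yet both genes stayed below the non-pregnant germ-free means (418 and 774 CPM). The log2 differences of Cyp2c37 (0.82 ± 0.28, adjusted p = 0.314), Cyp2c69 (0.57 ± 0.31), Cyp2c29 (0.41 ± 0.21), Cyp2c68 (0.36 ± 0.14) and Cyp2c40 (0.22 ± 0.22) did not pass.

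Over 21 alternative fits the log2 differences of the 5 called genes kept their sign, from 0.83 to 1.57 for Cyp2c38 and from 0.71 to 1.06 for Cyp2c50, but the calls changed. No member was called when only the pregnant mice were fitted (Cyp2c38 then 1.44, adjusted p = 0.2337), with library totals and no scaling factor, or without conventional pregnant replicate 5 or germ-free pregnant replicate 3, 4 or 5. Nor was any member, or any of the 15928 genes, called with age as a covariate (Cyp2c38 then 0.83 ± 0.49 and Cyp2c50 0.93 ± 0.35, adjusted p = 0.9985), a fit in which the slope of age comes from within the groups and carries over ages that germ-free and conventional mice do not share. The count was 1 without conventional pregnant replicate 4 and with the mitochondrial share as a covariate, 2 without germ-free pregnant replicate 1, 3 without conventional pregnant replicate 2 and 4 without conventional pregnant replicates 1 and 2 together, and Cyp2c37 passed without conventional pregnant replicate 1.

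Whether the pregnancy change itself differed between germ-free and conventional mice was tested as an interaction. No gene of the 15928 was called by edgeR (0% of all genes), the 10 members included, while DESeq2 called 7 genes and none of the members. At an unadjusted p under 0.05, 8 of 10 members passed against 5.67% of all genes. The differences, germ-free minus conventional, were 1.23 ± 0.38 for Cyp2c39, 1.22 ± 0.43 for Cyp2c69, 1.03 ± 0.29 for Cyp2c54, 1.03 ± 0.35 for Cyp2c38, 0.90 ± 0.23 for Cyp2c50, 0.85 ± 0.38 for Cyp2c37, 0.64 ± 0.29 for Cyp2c67 and 0.51 ± 0.19 for Cyp2c68 on the log2 scale, each with an adjusted p of 0.863. For Cyp2c40 it was 0.55 ± 0.30 (adjusted p = 0.882) and for Cyp2c29 -0.05 ± 0.28 (adjusted p = 0.988). This test uses the same 22 mice as the comparisons above.

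Summed over the 10 genes, the family stood at 4425 ± 432 CPM (SD, n = 6) in conventional non-pregnant and 2574 ± 276 CPM (n = 5) in conventional pregnant mice. The 5 pregnant mice ran from 2301 to 2967 CPM, below the lowest non-pregnant mouse at 3854 CPM, and the mean changed by -41.8%. In germ-free mice the sum was 4409 ± 537 CPM without and 3889 ± 450 CPM with pregnancy, a change of -11.8% with overlapping groups. As a percentage of all counts, with no scaling factor, it was 0.473% and 0.337%, a change of -28.7% with overlap. The sum in germ-free pregnant mice was 51.1% higher than in conventional pregnant mice, without overlap (3195 to 4320 CPM against 2301 to 2967 CPM). As a percentage of all counts the groups overlapped, at 0.241% to 0.39% against 0.2% to 0.355%, and the mean was 26.2% higher. Per library, the family took 0.2% to 0.605% of all counts.

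The composition of the sum shifted with pregnancy in both kinds of mice. The Cyp2c37 set made up 41.6% ± 5.96 of the sum in conventional non-pregnant and 21.6% ± 6.50 in conventional pregnant mice, and 42.1% ± 4.62 and 27.6% ± 2.31 in germ-free mice. The Cyp2c40 set made up 38.9% ± 7.02 and 54.8% ± 12.2 in conventional, and 30.6% ± 5.55 and 50.3% ± 4.43 in germ-free mice. The Cyp2c29 set held 19.5% ± 2.65 and 23.6% ± 6.07 in conventional, and 27.3% ± 6.53 and 22.1% ± 4.88 in germ-free mice. The share of the Cyp2c37 set was thus lower, and that of the Cyp2c40 set higher, on average in pregnant mice of either kind. In conventional pregnant replicate 2 the Cyp2c40 set reached 75.7%, the highest share of any library.

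**Figure D3:**
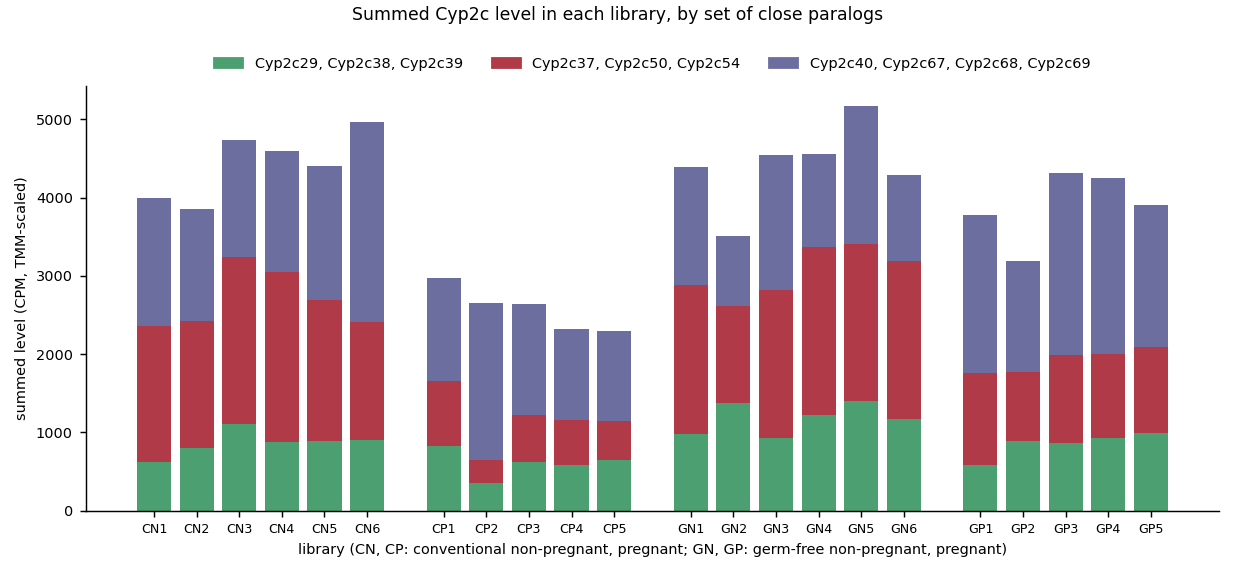
Summed level of the 10 genes in each of the 22 libraries (CPM after TMM scaling, stacked from 0), divided into the 3 sets of close paralogs. Conventional pregnant mice had the lowest sums (2301 to 2967 CPM), and the Cyp2c37 set made up a smaller part of the sum in pregnant than in non-pregnant mice on average.

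Within groups, some of the genes varied together between mice. After centring each gene on its group means, the Pearson correlation of log2 CPM over the 22 libraries was 0.81 between Cyp2c50 and Cyp2c54, 0.77 between Cyp2c37 and Cyp2c50, and 0.72 and 0.70 between Cyp2c38 and Cyp2c50 or Cyp2c54. In the Cyp2c40 set it was 0.72 between Cyp2c40 and Cyp2c68, 0.69 between Cyp2c67 and Cyp2c68 and 0.54 between Cyp2c40 and Cyp2c67, and lower for Cyp2c69 (0.51 with Cyp2c67, 0.44 with Cyp2c40 and 0.27 with Cyp2c68). Between these 4 genes and the Cyp2c40 set the values ran from -0.34 (Cyp2c54 with Cyp2c69) to 0.49 (Cyp2c54 with Cyp2c68). Cyp2c39 had 0.70 with Cyp2c37 and 0.68 with Cyp2c38. Over all 22 libraries Cyp2c38 thus varied with the Cyp2c37 set, from which its coding sequence is distant, and Cyp2c29 was loosely tied to either (at most 0.48, with Cyp2c37). These values describe libraries of the same mice and share their scaling, and within a set they also share reads. They include conventional pregnant replicate 2, the lowest of its group in Cyp2c38 (11.0 CPM), Cyp2c37 (83.7), Cyp2c50 (121) and Cyp2c54 (84.0). It was also the lowest in Cyp2c29 and Cyp2c39 and the highest in Cyp2c69 (1392 CPM). How far this mouse carries the correlations was not tested.

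The relation of each gene to the share of mitochondrially encoded counts was also computed. Within groups, log2 levels and the log2 share had a Pearson r of -0.53 for Cyp2c40 (Spearman rho -0.48), -0.48 for Cyp2c68 (rho -0.43), -0.48 for Cyp2c69 (rho -0.39) and -0.41 for Cyp2c67 (rho -0.39), with n = 22. Their permutation p within groups (two-sided, 100000 resamples) was 0.0301, 0.0483, 0.0416 and 0.105 for r and 0.0468, 0.0739, 0.102 and 0.0889 for rho. None held after adjustment over the 10 genes (lowest 0.161 for r and 0.256 for rho). Without the 2 libraries farthest from the median, r was -0.46, -0.44, -0.53 and -0.41. For the other 6 genes r lay between -0.07 and 0.21. The share averaged 15.8% in conventional non-pregnant, 9.84% in conventional pregnant, 19.9% in germ-free non-pregnant and 16.3% in germ-free pregnant mice. With the share as a covariate, 7 members were called for pregnancy in conventional and 4 in germ-free mice, as without it. Of all 15928 genes, 579 rose and 378 fell in conventional and 1029 and 506 in germ-free pregnancy. Without the covariate these were 875 and 561, and 1139 and 574. Between germ-free and conventional pregnant mice, Cyp2c38, Cyp2c39, Cyp2c50 and Cyp2c54 lost their calls with the covariate, and Cyp2c67 kept its call.

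**Figure D4:**
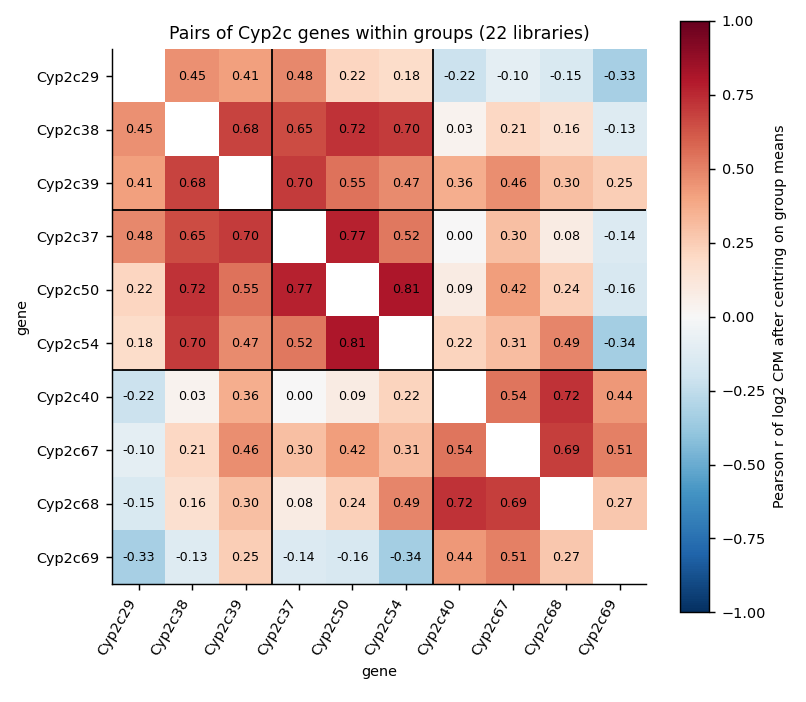
Pearson correlation of log2 CPM for each pair of genes over 22 libraries after centring on group means, with lines between the 3 sets of close paralogs. The Cyp2c37 set and Cyp2c38 had 0.52 to 0.81 among themselves, and the Cyp2c40 set 0.27 to 0.72, the low end being the pairs with Cyp2c69. Conventional pregnant replicate 2, the lowest of its group in the Cyp2c37 set and Cyp2c38, is included.

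Other genes of the Cyp2c name were measured beside the family. Cyp2c70, which makes muricholic acids in the mouse, rose with pregnancy in conventional mice (765 ± 213 against 410 ± 72.4 CPM, log2 change 0.90 ± 0.21, adjusted p = 0.00791) and in germ-free mice (760 ± 236 against 378 ± 65.5 CPM, 1.01 ± 0.21, adjusted p = 0.00234). Cyp2c55, a low gene of this list, fell in germ-free pregnancy (log2 change -2.83 ± 0.41, adjusted p = 5.12e-05), where non-pregnant replicate 2 alone held 25.6 CPM. The epoxygenase gene Cyp2c23 averaged 301 CPM without and 223 CPM with pregnancy in conventional mice, and 343 and 319 CPM in germ-free mice, and was not called. Cyp2c65 had counts only in germ-free pregnant replicate 2 (2.62 CPM), and Cyp2c66 did not exceed 0.0406 CPM.

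Electron donors and heme enzymes serve P450 enzymes in general. Of 14 such genes, 2 rose and 0 fell in conventional pregnancy and 3 rose and 0 fell in germ-free pregnancy, with a median log2 change of -0.02 and 0.13. Over all genes tested, 5.49% rose and 3.52% fell in conventional and 7.15% rose and 3.6% fell in germ-free pregnancy, which is the background for this and each list below. Cytochrome b5 reductase Cyb5r3 rose by 0.90 ± 0.18 and 1.56 ± 0.18, the heme oxygenase Hmox1 by 1.66 ± 0.39 in conventional mice, and the heme synthesis enzyme Alad by 0.63 ± 0.18 in germ-free mice. Por averaged 369 ± 150 CPM in conventional pregnant and 552 ± 102 CPM in non-pregnant mice (log2 change -0.58 ± 0.25, adjusted p = 0.172) and was not called in germ-free mice either (-0.34 ± 0.25, adjusted p = 0.44).

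Among 22 nuclear receptors and hepatocyte transcription factors, 3 rose and 3 fell in conventional and 1 rose and 3 fell in germ-free pregnancy, against 5.49% and 3.52%, and 7.15% and 3.6%, of all genes. Onecut1 rose by 1.36 ± 0.37 in conventional mice and Foxa3 by 0.75 ± 0.23 in conventional and 1.11 ± 0.23 in germ-free mice. Foxa1 fell by 1.08 ± 0.19 and 1.00 ± 0.19, the coactivator Ppargc1a by 1.02 ± 0.25 and 1.14 ± 0.25, and Nr0b2, the repressor SHP, by 1.27 ± 0.34 in germ-free mice. Nr1i3 (CAR) stood at 32.3 to 206 CPM in conventional pregnant and 97.1 to 399 CPM in non-pregnant mice, a log2 change of -1.16 ± 0.39 that did not pass (adjusted p = 0.0694). In germ-free mice it was -0.89 ± 0.39 (adjusted p = 0.159). Nr1i2 (PXR) changed by -0.34 ± 0.19 and -0.37 ± 0.19 and Hnf4a by 0.31 ± 0.19 and 0.53 ± 0.19, and neither was called (lowest adjusted p = 0.0833, for Hnf4a in germ-free mice).

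Of 12 genes of growth hormone and prolactin signalling, 3 rose and 1 fell in conventional and 3 rose and 0 fell in germ-free pregnancy (all genes 5.49% and 3.52%, and 7.15% and 3.6%). Prlr rose by 2.69 ± 0.26 and 3.02 ± 0.26, the growth hormone receptor Ghr by 2.40 ± 0.29 and 2.95 ± 0.30, and Socs1, an inhibitor of cytokine signalling, by 3.64 ± 1.02 in conventional mice with overlapping groups. Bcl6, a repressor of female-biased liver genes, fell by 1.18 ± 0.27 in conventional mice.

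Among 18 targets of CAR and PXR outside the family, 4 rose and 4 fell in conventional and 4 rose and 5 fell in germ-free pregnancy (all genes 5.49% and 3.52%, and 7.15% and 3.6%). The female-biased gene Cyp2b13 fell by 3.64 ± 0.29 in conventional and 1.47 ± 0.26 in germ-free mice and the efflux transporter Abcc3 by 1.75 ± 0.41 and 2.59 ± 0.43. Cyp3a11 fell by 1.88 ± 0.32 in germ-free mice (adjusted p = 0.000253) and changed by -0.82 ± 0.30 in conventional mice (adjusted p = 0.0966), and Aldh1a7 and Gadd45b rose in both (2.98 ± 0.19 and 2.66 ± 0.34 in conventional, 3.10 ± 0.19 and 2.30 ± 0.33 in germ-free mice). Between germ-free and conventional pregnant mice, Cyp2b13 was higher by 2.43 ± 0.28, as 5 members of the Cyp2c family were, while Cyp3a11 (-1.76 ± 0.32, adjusted p = 0.0222) and Ces2a (-1.02 ± 0.18) were lower. The CAR target Cyp2b10 averaged 19.7 to 28.9 CPM in the 4 groups and was not called in any comparison.

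Of 19 measured genes of arachidonate release, epoxidation and epoxide hydrolysis, 3 rose and 1 fell in conventional and 2 rose and 2 fell in germ-free pregnancy (all genes 5.49% and 3.52%, and 7.15% and 3.6%). The desaturase Fads1 rose by 1.25 ± 0.21 and 1.16 ± 0.21, Fads2 by 1.17 ± 0.32 in conventional mice and Acsl5 by 0.80 ± 0.20 and 0.67 ± 0.20. The fatty acid hydroxylase Cyp4a14 fell by 1.40 ± 0.30 and 1.85 ± 0.31, and the epoxide hydrolase Ephx1 by 0.90 ± 0.25 in germ-free mice.

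Hepatocyte genes of either end of the lobule were counted against the same shares of all genes (5.49% higher and 3.52% lower in conventional, 7.15% and 3.6% in germ-free pregnancy). Of 17 pericentral genes outside the family, 0 rose and 6 fell in conventional pregnancy, among them Lect2 (-1.60 ± 0.18), Oat (-1.55 ± 0.30) and Axin2 (-0.72 ± 0.21), and 0 rose and 2 fell in germ-free pregnancy, Lect2 (-1.15 ± 0.18) and Axin2 (-0.96 ± 0.22). Of 15 periportal genes, 1 rose and 4 fell in conventional pregnancy, and 1 rose and 3 fell in germ-free pregnancy. Among these Sds changed by -1.93 ± 0.43 and -1.77 ± 0.43, Ass1 by -1.17 ± 0.32 in conventional mice and Hsd17b13 by -0.86 ± 0.20 and -1.33 ± 0.21, and Alb rose by 1.25 ± 0.28 and 1.13 ± 0.28. With germ-free status, the cysteine sulfinate decarboxylase Csad was lower in non-pregnant (-2.66 ± 0.36) and pregnant mice (-2.87 ± 0.40), as was Sult5a1 (-2.28 ± 0.39 and -2.41 ± 0.44), and Pck1 was higher in pregnant mice (1.23 ± 0.24).

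The genes whose log2 CPM followed the summed family most closely over the 22 libraries, of 8713 genes outside it with a mean of at least 5 CPM, were Cyp2b13 (Pearson r = 0.89), Ildr2 (0.88), Rnase4 (0.87), Ptdss1 (0.86) and Slc16a10 (0.85). For single members the closest genes were Rnase4 for Cyp2c50 (0.97), Slc16a10 for Cyp2c37 (0.92), Nox4 for Cyp2c54 (0.91) and for Cyp2c38 (0.86), and Cln8 for Cyp2c67 (0.87). They were Mrps5 for Cyp2c40 (0.83), Cps1 for Cyp2c29 (0.82), Bche for Cyp2c39 (0.79), Gpld1 for Cyp2c68 (0.79) and Cndp2 for Cyp2c69 (0.76). These r include the differences between the 4 groups, and after centring on group means they were lower, for example 0.62 for Rnase4 with Cyp2c50 and 0.25 for Cyp2b13 with the sum. Rnase4 averaged 904 CPM without and 250 CPM with pregnancy in conventional mice, and 1046 and 487 CPM in germ-free mice.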

How the data were processed

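Per the labels' protocols, total RNA from snap-frozen liver was made into libraries with a NEBNext Ultra RNA kit. The deposited values are estimated counts per gene; per the submitters' processing notes the authors' tools included edgeR 3.24.3 and Salmon 0.11.3, with GRCm38.p6 as the build. Which annotation release they used is not given in the sources used here. Such values divide reads that fit several transcripts. Identifiers were matched to GENCODE M21 symbols (99.931%, 97.72% with their version). Counts were rounded (0.00829% of counts changed), filtered with filterByExpr of edgeR 4.0.16 (minimum count 10, total 15; 15928 genes), scaled by TMM and fitted for all 22 libraries in 1 quasi-likelihood model with a term per group; a gene was called at a Benjamini-Hochberg adjusted p under 0.05 over all genes. CPM are counts relative to the TMM-adjusted library size, and log2 changes carry their standard error. The fit was tested on simulated data. Sums of members carry no test. Alternatives were DESeq2 1.42.0, other scalings and filters, fewer groups, a replicate block, age as a covariate and each library left out. The members and gene lists were chosen with earlier results of these data known. From each context list the text names at most 2 higher and 2 lower called genes per comparison with the largest change, plus Nr1i3, Nr1i2, Hnf4a, Por, Cyp2b10, Cyp3a11, Cyp2c70 and Cyp2c23; Cyp2c55, Cyp2c65, Cyp2c66 and Rnase4 were named after their values were seen, as were the libraries that stand apart. The labels describe separate mice. Of 50 pairs of libraries within groups, none was a repeat of another (mean chi-square per gene at least 31.9).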

Additional observations from a re-analysis of the deposited data

Results flagged for a closer look

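In 3 groups a level stood far from the others, where chance gives about 1 in 20 groups and 44 groups were checked. Cyp2c69 was 1346 CPM in conventional non-pregnant replicate 6, against 577 to 683 CPM in the other 5 mice. It was 1392 CPM in conventional pregnant replicate 2, the library with high Saa1 and Saa2, against 521 to 761 CPM in the other 4 mice. Cyp2c68 was 493 CPM in germ-free pregnant replicate 3, against 382 to 410 CPM in the other 4 mice. Their causes were not tested.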

How the results depend on the processing

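Over the alternative fits of single members, 1052 values kept their direction and their side of the threshold, 80 lost and 13 gained a call, and 35 changed sign. Sign changes occurred in uncalled values. For conventional pregnancy, Cyp2c39 ran from -0.20 to 0.13 and Cyp2c69 from -0.25 to 0.32 with a library left out (the lowest and highest without conventional pregnant replicates 1 or 2, or non-pregnant replicate 6), and Cyp2c69 was -0.41 without replicates 1 and 2 together and -0.15 with the mitochondrial share as a covariate. For germ-free pregnancy, Cyp2c38 was 0.00572 with that covariate and -0.0994 to 0.12 with a library left out. Cyp2c68 was -0.0374 with upper-quartile scaling, -0.00397 with no filter, -0.0022 with the covariate, -0.28 with no scaling factor and -0.0343 to 0.0844 with a library left out. For germ-free status without pregnancy, Cyp2c37 was 0.0107 with upper-quartile scaling and -0.0931 to 0.059 with a library left out, Cyp2c39 -0.0404 to 0.24 and Cyp2c54 -0.0397 to 0.17. With age as a covariate, germ-free status without pregnancy gave -0.17 for Cyp2c29, 0.033 for Cyp2c37, -0.14 for Cyp2c38, -0.26 for Cyp2c39, 0.15 for Cyp2c40 and -0.34 for Cyp2c54, and Cyp2c29 was -0.33 in pregnant mice. Cyp2c40 was -0.000625 for germ-free status in pregnant mice with no scaling factor, and the interaction of Cyp2c29 ran from -0.19 to 0.10 with a library left out.

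The number of members called between germ-free and conventional pregnant mice was 5, but 0 with only these groups, with no scaling factor or with age as a covariate, 1 with the mitochondrial share as a covariate, and 0 to 5 with a library left out. With no scaling factor the log2 ratio of the sum was -0.49 for germ-free pregnancy and 0.33 for germ-free status in pregnant mice. That scaling moved the median log2 change of all genes to -0.33 and -0.28 in these comparisons, and the split of higher and lower calls from 1139 and 574 to 470 and 2126 and from 13 and 8 to 4 and 16. In conventional pregnancy it moved the split from 875 and 561 to 551 and 544. Upper-quartile scaling gave 939 and 821 in germ-free pregnancy, with a median of -0.10. Between germ-free and conventional pregnant mice DESeq2 called 64 genes higher and 44 lower, and the fit of only these groups 2 and 3. Age in the comparisons of germ-free with conventional mice, the mitochondrial covariate, the joint removal of replicates 1 and 2 and, for single members, the absence of a scaling factor were chosen after seeing the data.

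Mice with the same replicate number were not paired by the data (21 pairs, r of deviations -0.26 to 0.31, 4 best matches). With a replicate block, 6 members were called in conventional and 5 in germ-free pregnancy, 0 for germ-free status in non-pregnant and 5 in pregnant mice, and 0 for the interaction. Shared sequence limits single members of the Cyp2c37 and Cyp2c40 sets, and depth limits Cyp2c39, at 1.93 to 14.4 CPM.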
